A study of Mus musculus with 192 samples.

Results

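Interferon-inducible GTPases were followed at their transcription start sites in single mouse embryonic fibroblasts (MEFs, primary cells cultured from mouse embryos). The genes were 8: the guanylate-binding proteins Gbp2, Gbp3, Gbp5 and Gbp7, and the immunity-related GTPases Iigp1, Irgm1, Irgm2 and Igtp. They were chosen by name, and their start-site windows were those of the deposited RefSeq table on genome build mm9 that lay within 1000 bp of an annotated start of the gene. This gave 155 windows of 150 bp, of 136934 windows near any RefSeq start and 553094 in all, and 546 peaks on the gene's strand, of 439955 such peaks. All cells were C57BL/6 MEFs given interferon-beta, a secreted antiviral protein, at 100 U/ml for 1 h. By their labels, 96 of them were naive and 96 pretreated, and the labels do not say what the pretreatment was. They name no animal, culture, plate or genotype other than the strain.

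The assay, single-cell start-site sequencing, reads the 5′ ends of RNA, so a read (tag) marks a 5′ end. Whether each 5′ end is a transcription start was not tested. Peaks were called in each cell alone with a set minimum of 200 tags per 10000000 tags, so a cell with no listed peak is not shown to lack the RNA. Some listed peaks more than 1000 bp from a start nevertheless lay below that value, down to 142.5 for Iigp1 in a naive cell. After cells under 10% of the median depth were left out, 92 naive cells (305066 to 3857034 tags, median 2305628) and 85 pretreated cells (502374 to 13174313 tags, median 2650490) remained. Each group is 1 sample of many cells, so no test between groups was made and no difference has a replicate check. Culture, handling and pretreatment cannot be told apart. A level below is the tags in listed peaks of a gene near its start, summed over the cells of a group, per 10000000 total tags. A cell with no listed peak adds 0 to it, whatever tags it held below the calling minimum. Intervals in parentheses are exact 95% Poisson or Clopper-Pearson intervals and cover counting error only. Of 10 fibroblast markers, 9 had a peak, and every cell had at least 1 of them, with a median summed level per cell of 13745 in naive and 18113 in pretreated cells (lowest 2730 and 997, highest 37270 and 44272). Vim and Col1a1 were listed in nearly every cell, Dcn in 3 naive and 1 pretreated, Thy1 in 1 naive and 0 pretreated, and Lum had no window. For macrophages, 3 of 8 marker genes had no start window in the table (Ptprc, Adgre1 and Tyrobp), and the summed level of the others was 0 in 68 of 92 naive and 45 of 85 pretreated cells. It ranged from 0 to 4090 and from 0 to 1397, and Cd14, the 1 macrophage marker past the filter on listed genes described below, had a log2 ratio of pretreated over naive of 1.46 (listed in 15 and 33 cells). The part of these markers in the results below was not tested. The epithelial markers Epcam, Cdh1 and Krt14 were listed in no cell, Krt5 had no window, and of the endothelial markers Kdr was listed in 1 cell.

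Guanylate-binding proteins are large GTPases that gather on the vacuoles of intracellular parasites and on bacteria and help to break them open. Immunity-related GTPases act on the same vacuoles: effectors such as Iigp1 load onto the pathogen's membrane, while the regulators Irgm1, Irgm2 and Igtp sit on the cell's own membranes and hold the effectors inactive there. Both families are switched on by interferons through 2 promoter elements, the interferon-stimulated response element (ISRE), bound by a complex that holds Stat2 and Irf9, and gamma-activated sites (GAS). In fibroblasts they are among the best known parts of the cell's own defence against vacuolar parasites.

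The promoters are shown because most of the values below are of tags within 1000 bp of these starts. RefSeq sequences (GRCm38.p6) were found for 7 of the 8 genes. Each is printed 5′ to 3′ on the gene's strand from 90 bases before the annotated start to 30 bases into the transcript, and for Gbp5 from 175 bases before. Capitals mark the ISRE core, GAAA, any 2 bases and GAAA again (TTTC, any 2 bases and TTTC on the other strand), searched on both strands, overlaps included.
Gbp2 (chr3:142620573-142620692, + strand): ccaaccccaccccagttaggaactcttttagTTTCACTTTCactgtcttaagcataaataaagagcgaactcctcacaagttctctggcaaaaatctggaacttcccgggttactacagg
Gbp7 (chr3:142530246-142530365, + strand): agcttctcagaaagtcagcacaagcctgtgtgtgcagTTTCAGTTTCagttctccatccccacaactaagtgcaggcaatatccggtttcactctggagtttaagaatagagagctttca
Gbp3, first start (chr3:142559954-142560073, + strand): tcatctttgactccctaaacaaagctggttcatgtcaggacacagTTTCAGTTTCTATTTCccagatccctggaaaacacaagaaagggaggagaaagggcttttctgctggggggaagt
Gbp3, second start (chr3:142560266-142560385, + strand): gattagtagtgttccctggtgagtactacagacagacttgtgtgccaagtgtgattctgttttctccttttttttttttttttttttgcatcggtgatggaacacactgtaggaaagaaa
Gbp5 (chr3:142496759-142496963, + strand): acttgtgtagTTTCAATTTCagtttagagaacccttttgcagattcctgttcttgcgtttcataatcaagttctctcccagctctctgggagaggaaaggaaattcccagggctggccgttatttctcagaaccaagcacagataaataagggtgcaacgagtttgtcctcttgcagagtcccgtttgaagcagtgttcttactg
Irgm1 (chr11:48871391-48871510, - strand): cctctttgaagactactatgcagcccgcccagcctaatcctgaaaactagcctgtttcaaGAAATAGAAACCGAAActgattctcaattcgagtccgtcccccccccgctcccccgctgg
Irgm2 (chr11:58214887-58215006, + strand): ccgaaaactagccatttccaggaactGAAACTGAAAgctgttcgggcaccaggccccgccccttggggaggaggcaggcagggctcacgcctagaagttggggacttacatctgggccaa
Igtp (chr11:58199466-58199585, + strand): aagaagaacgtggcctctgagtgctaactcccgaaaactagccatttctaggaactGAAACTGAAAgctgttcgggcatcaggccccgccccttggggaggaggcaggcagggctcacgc
All 7 genes held an ISRE core within the table's window of 250 bases before to 50 bases after the start, against 3.44% of the 32851 promoters of the same length. It began 59 bases before the start in Gbp2, 53 in Gbp7, 64 in Irgm2 and 34 in Igtp. Overlapping pairs of cores lay 45 and 39 bases before the first start of Gbp3, and 30 and 24 bases before that of Irgm1. The core of Gbp5 lay farthest out, 165 bases before the start, and the second start of Gbp3 had none in its window. A GAS core (TTCNNNGAA, which reads the same on both strands) was found in 4 of the 7, namely Gbp5, Gbp7, Irgm2 and Igtp, against 8.30% of promoters. A match describes letters in a window and is not a measured binding site. Irgm2 and Igtp, neighbours on chromosome 11 whose starts lie 15421 bp apart, share an identical run of 61 bases in these windows, displaced by 30 bases relative to the starts.

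Near their starts, Gbp2, Gbp3 and Gbp7 were several-fold higher in pretreated than in naive cells and were listed in most pretreated cells. Irgm1 was already listed in most naive cells and was 1.59-fold higher in pretreated cells. Iigp1 was listed near its starts in 16 naive and 4 pretreated cells, and Gbp5, Irgm2 and Igtp in at most 4 cells of a group. The summed level of the 8 genes was 3554 in naive and 9624 in pretreated cells (log2 ratio 1.44, 1.43 to 1.45), and no single cell left out moved it beyond 1.40 to 1.52. Within cells the sum ran from 0 over a median of 2419 to 26759 in naive cells and from 0 over 9549 to 21912 in pretreated cells. The ranges overlapped, but the interquartile range was 1028 to 5259 in naive and 6616 to 12774 in pretreated cells.

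Of the 8 genes, 4 had a log2 ratio of at least 1 (Gbp2, Gbp3, Gbp7 and Irgm2), beside 30% of the 4487 RefSeq genes tested, those with a listed peak in 20% or more of the cells of either group. Of these 4, Irgm2 rests on 5 cells in all and did not pass that filter. Iigp1 and Gbp5 had a log2 ratio of at most -1, beside 9.12% of all genes, and neither passed the filter. Igtp, listed at 0 in pretreated cells, has no ratio and is not counted among these. The upper bound of its log2 ratio was -6.79, and it did not pass the filter either. Listed cells were at least 20 percentage points more frequent in pretreated cells for 3 of the 8 (Gbp2, Gbp3 and Gbp7), beside 42.2% of all genes, and less frequent by that much for 0 of 8, beside 2.67%. The median log2 ratio of the 8 was 0.91, with Igtp at its bound, against 0.47 over all genes tested. The median difference in the share of cells was 7.07 points for the 8 and 17.1 points for all genes tested. Both medians of the 8 include genes that did not pass the filter, whereas those over all genes hold only genes that did. The sets are therefore unlike. The value of 0.91 lies midway between the ratios of Irgm1 (0.67) and Irgm2 (1.15). In pretreated cells most genes were thus listed more often and at higher levels on this scale, which is the background for each value below. Gbp2, Gbp3, Gbp7 and Irgm1 passed the filter, Gbp2 and Gbp3 only through the pretreated cells.

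**Figure D1:**
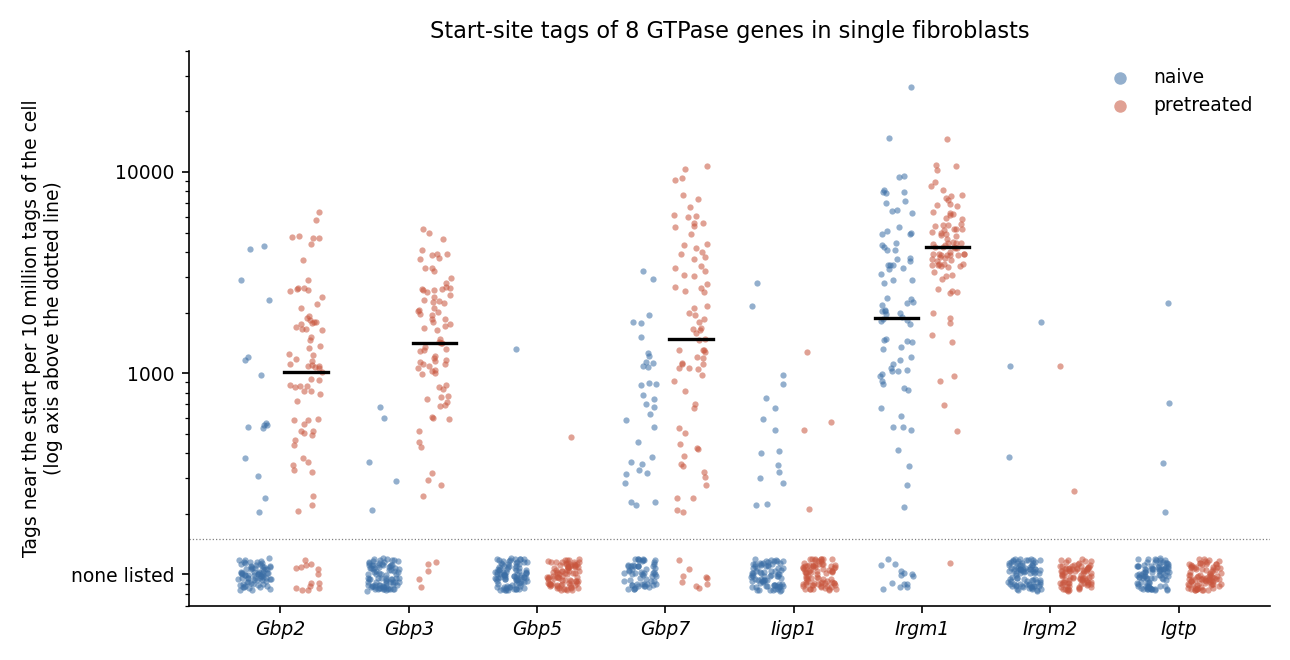
Tags near the start of each GTPase gene in every kept cell, per 10000000 tags of that cell, on a log axis above the dotted line; cells with no listed peak are placed below it, and black bars mark medians above 0 (92 naive cells in blue, 85 pretreated cells in red). Medians of Gbp2, Gbp3 and Gbp7 were 0 in naive cells and 1009 to 1486 in pretreated cells, whereas Irgm1 was listed in most cells of both groups.

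Gbp2, a guanylate-binding protein that restricts Toxoplasma in mouse cells, lies on chromosome 3 with its annotated start at position 142283627 (mm9, + strand). In naive cells it ran from 0 over a median of 0 to 4285 tags per 10000000, and in pretreated cells from 0 over 1009 to 6321. The 2 ranges overlapped almost fully, and the groups differed mainly in how many cells were at 0. A peak was listed in 16 of 92 naive cells (17.4%, 10.3 to 26.7) and 71 of 85 pretreated cells (83.5%, 73.9 to 90.7). Among listed cells the median was 561 in naive and 1146 in pretreated cells. The pooled level was 223 in naive and 1246 in pretreated cells, 5.59-fold higher (log2 ratio 2.48, 2.44 to 2.53). The log2 ratio lay between 2.43 and 2.90 with any single cell left out.

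Gbp3, another member of the chromosome 3 cluster (first annotated start 142223008, mm9, + strand), had the largest log2 ratio of these genes. It ran from 0 over a median of 0 to 679 in naive cells and from 0 over 1414 to 5203 in pretreated cells. It was listed near its starts in 5 naive cells (5.43%, 1.79 to 12.2) and 80 pretreated cells (94.1%, 86.8 to 98.1). Nearly every pretreated cell thus had a near-start peak and nearly every naive cell had none listed. Counted anywhere in the gene, Gbp3 was listed in 15 naive (16.3%) and 82 pretreated cells (96.5%). The pooled level was 15.5 in naive and 1612 in pretreated cells, 104-fold higher, with a log2 ratio of 6.70 (6.54 to 6.87). The naive level rests on 315 tags from 5 cells, and 31.4% of them came from 1 cell. All other naive cells count as 0, although tags below the calling minimum are not seen. The size of the ratio therefore depends on that minimum, which the interval does not cover. Without any single cell the log2 ratio lay between 6.67 and 7.23. With no limit on the distance to the start it was 3.25.

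Gbp7, which is known to help assemble the phagocyte oxidase and to act in autophagic killing of bacteria, starts at position 142193300 of chromosome 3 (mm9, + strand). Naive cells ran from 0 over a median of 0 to 3209, and pretreated cells from 0 over 1486 to 10678. It was listed in 33 naive cells (35.9%, 26.1 to 46.5) and 76 pretreated cells (89.4%, 80.8 to 95.04). The highest pretreated cells reached values above any naive cell, while the lowest listed cells of both groups were alike, at 221 and 205. The pooled level was 338 in naive and 2253 in pretreated cells, 6.67-fold higher (log2 ratio 2.74, 2.70 to 2.77, and 2.62 to 2.88 with any 1 cell left out). Of the 50-base stretches of its transcripts in GENCODE vM21, 12.7% also occur in another gene, mostly Gm43802, so a part of its reads could be shared. The handling of reads with several matches is not given in the sources used here.

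Gbp5, a guanylate-binding protein known for promoting inflammasome assembly, lies 33402 bp upstream of Gbp7. It was listed in 1 cell of each group, at 1317 tags per 10000000 in the naive cell and 483 in the pretreated cell. Its pooled levels of 20.9 and 6.00 are therefore the values of single cells, and no direction is read from them. The chromosome 3 genes thus ranged from 1 to 80 listed cells among 85 pretreated cells, with Gbp5 and Gbp3 at the ends.

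Irgm1, a regulator that is also known from autophagy and resistance to mycobacteria, lies on the - strand of chromosome 11 with its annotated start at position 48684922 (mm9). Naive cells ran from 0 over a median of 1886 to 26298, and pretreated cells from 0 over 4219 to 14630. The highest 2 cells of all were naive, and the groups overlapped widely. A peak was listed in 78 naive cells (84.8%, 75.8 to 91.4) and 84 pretreated cells (98.8%, 93.6 to 100.0). The pooled level was 2810 in naive and 4467 in pretreated cells, 1.59-fold higher, with a log2 ratio of 0.67 (0.65 to 0.68), and 0.64 to 0.74 with any 1 cell left out. That ratio stood above the median of all genes, 0.47, and inside their quartiles of -0.17 and 1.17. Scaling that removes a common shift of 0.47 left 0.20 for Irgm1.

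Irgm2, a regulator known to restrain the noncanonical inflammasome, was listed near its start in 3 naive and 2 pretreated cells, at up to 1803 and 1081 tags per 10000000. Of these 5 peaks, 1 lay in the annotated 5′ UTR and 4 in intron 1. Its log2 ratio of 1.15 ranged from 0.09 to 2.04 with any 1 cell left out, and the mean over cells gave the opposite sign (-1.17). Igtp (also called Irgm3), a regulator of the endoplasmic reticulum needed for resistance to Toxoplasma, was listed near its start in 4 naive cells, at most at 2229, and listed at 0 in pretreated cells. None of the 4 peaks was at the annotated start: all lay in intron 1, at 550 to 858 bp.

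Iigp1 (also called Irga6), an effector that coats parasite vacuoles, was listed near its starts in more naive than pretreated cells. Its 2 annotated starts lie at positions 60533270 and 60535683 of chromosome 18 (mm9, + strand). Naive cells ran from 0 over a median of 0 to 2819, and pretreated cells from 0 over 0 to 1277. It was listed in 16 naive cells (17.4%, 10.3 to 26.7) and 4 pretreated cells (4.71%, 1.30 to 11.6). The pooled level was 125 in naive and 21.3 in pretreated cells (log2 ratio -2.55, -2.68 to -2.42, and -3.12 to -2.08 with any 1 cell left out). With no limit on the distance it was -1.11, with windows within 300 bp -1.43, and with GENCODE genes -5.93. Of the 16 naive peaks, 1 lay at the earlier start, 9 within 100 bp of the later start and 6 farther downstream in intron 2. In 3 of the 4 pretreated cells the peak was at the earlier start, 2 bp upstream.

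The order of pooled levels in naive cells was Irgm1, Gbp7, Gbp2, Iigp1, Gbp5, Gbp3, Igtp and Irgm2. Irgm1 alone held 79.1% of the tags of the 8 genes, Gbp7 9.50% and Gbp2 6.27%. In pretreated cells the order was Irgm1 (46.4% of tags), Gbp7 (23.4%), Gbp3 (16.8%) and Gbp2 (12.95%), with the other 4 genes below 0.3% each. Gbp3 moved from the sixth to the third place, although the per-cell ranges of Gbp2, Gbp3 and Gbp7 overlapped throughout. These are levels of near-start tags, and the order holds for them only.

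The GTPases were also listed together in more pretreated cells. The median cell had 1 of the 8 genes listed in the naive group and 4 in the pretreated group. Among naive cells 9 had 0 genes, 41 had 1, 21 had 2, 12 had 3, 8 had 4 and 1 had 5. Among pretreated cells 1 had 0, 4 had 2, 16 had 3, 58 had 4 and 6 had 5. Gbp2, Gbp3, Gbp7 and Irgm1 were all listed in 2 naive cells (2.17%) and 63 pretreated cells (74.1%). These 4 are the genes that passed the filter, Gbp2 and Gbp3 only through the pretreated cells. A low naive count follows in part from that choice. Taken gene by gene, in that order, they were listed in 83.5%, 94.1%, 89.4% and 98.8% of pretreated cells. Joint listing beyond these single shares was not tested. The number of genes per cell had little relation to depth within a group, with Spearman correlations across cells of -0.07 (n = 92) and 0.09 (n = 85). The tags of listed peaks were also thinned to 1122993 tags per cell, which left out 16 naive and 2 pretreated cells. Gbp3 was then listed in 3.95% and 93.98% of cells, Gbp2 in 15.8% and 84.3%, Gbp7 in 36.8% and 90.4%, and Irgm1 in 84.2% and 98.8%. Peaks were not called again after thinning, and any peak that kept a tag was counted. These shares were therefore bound to stay close to the unthinned ones and do not show how depth limits the listing.

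**Figure D2:**
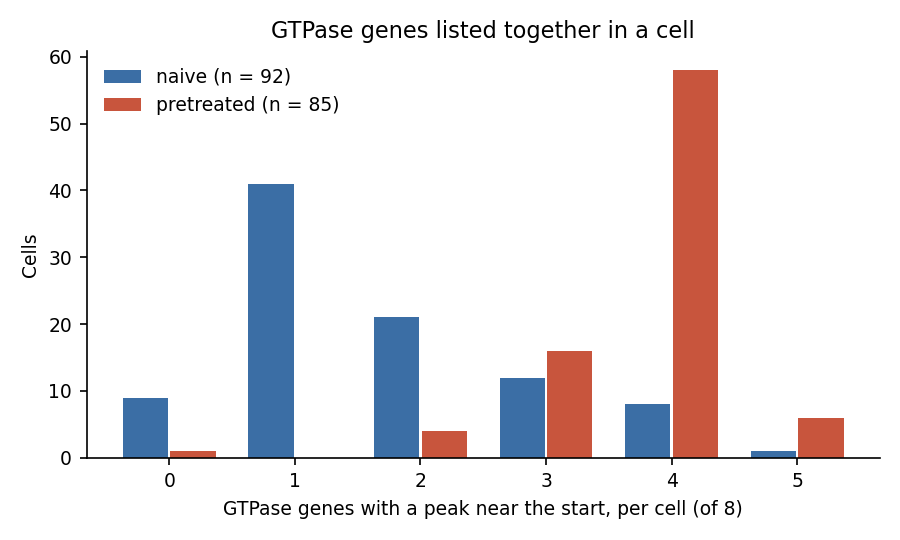
Number of cells (y axis) by how many of the 8 GTPase genes had a listed peak near the start in that cell (x axis), for 92 naive (blue) and 85 pretreated (red) cells. The tallest naive bar stands at 1 gene with 41 cells and the tallest pretreated bar at 4 genes with 58 cells.

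Within a group the levels of the 4 frequent genes were weakly related from cell to cell. Spearman correlations of their 6 pairs were 0.13 to 0.38 in naive and 0.14 to 0.35 in pretreated cells. These are descriptions over cells that differ in depth, and the genes of a cell share its depth and scale. Among the 16 naive cells with a Gbp2 peak, 14 had Irgm1, 11 had Gbp7 and 3 had Gbp3, where 78, 33 and 5 of all 92 naive cells had these genes. The gene whose level across pretreated cells was most like the sum of the 8 was Ifi47, itself an immunity-related GTPase (Spearman 0.55 in pretreated and 0.38 in naive cells). Ifit1 (0.53 and 0.57), Ifit3 (0.50 and 0.56), Ifit3b (0.48 and 0.58) and Xaf1 (0.48 and 0.52), all interferon-induced genes, followed. Among the 4369 genes ranked, the median correlation was 0.02 and the 95th percentile 0.22.

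Start positions differed between the groups for Irgm1 and Gbp7, and hardly for Gbp2. The main position of a peak is the centre of its 150 bp window, where its tags pile up highest. A share of tags below is the share held by peaks whose main position lay in an interval: all tags of the 150 bp window count there, including any that started elsewhere in it. The intervals were chosen after the positions had been seen. Among the 2 of the 8 genes with a peak in 20% or more of each group's cells, Irgm1 and Gbp7, the median main position was at least 20 bp apart between the groups for 1, beside 10% of the 2800 genes with that property.

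The main positions of Irgm1 peaks fell mostly in 2 regions downstream of its annotated start. Peaks centred in the upstream region, 15 to 45 bp from the start, held 16.4% of its tags in naive and 67.2% in pretreated cells, and were listed in 23 of 78 naive (29.5%, 19.7 to 40.9) and 52 of 84 pretreated cells (61.9%, 50.7 to 72.3). Peaks centred in the downstream region, 76 to 110 bp from the start, held 69.3% in naive and 27.6% in pretreated cells, and were listed in 43 (55.1%, 43.4 to 66.4) and 26 cells (30.95%, 21.3 to 41.98). The median main position lay 54 bp further upstream in pretreated cells. By level, peaks centred upstream stood at 460 in naive and 3003 in pretreated cells, and those centred downstream at 1946 and 1233. With GENCODE genes the log2 ratio of Irgm1 was 2.45. A single position, 94 bp from the start (chr11:48684754-48684903), still led in both groups, with 32.8% of naive tags in 24 cells and 22.1% of pretreated tags in 23 cells. Pretreated peaks of the upstream region were spread over several positions, 29 bp in 8 cells, 32 bp in 15 cells and 34 bp in 19 cells. Peaks of a cell must lie 300 bp apart and the windows of the 2 regions overlap, so a cell that used both regions is listed once, at the higher, with the tags of both. The files therefore do not give the tags of each region alone. The deposited concentration ratio of a peak, the fraction of its tags close to the main position, had a median of 0.927 for Irgm1 in naive and 0.704 in pretreated cells. For all near-start peaks it was 0.956 and 0.897. For pretreated Irgm1 peaks it was 0.576 where they were centred upstream and 0.991 where they were centred downstream.

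Gbp7 peaks were centred at places spread over 0 to 49 bp in naive cells and mostly at 1 place in pretreated cells. Those centred 35 to 50 bp from the annotated start held 44.4% of tags in naive and 94.8% in pretreated cells, and were listed in 14 of 33 (42.4%, 25.5 to 60.8) and 64 of 76 listed cells (84.2%, 74.04 to 91.6). Those centred within 5 bp of the annotated start held 34.3% of tags in naive and 1.57% in pretreated cells, in 7 and 4 cells. Other naive peaks lay between, 5 of them at 7 bp and 3 at 23 bp. The median main position was 19 bp further downstream in pretreated cells. The leading window changed from the annotated start itself, with 7 naive cells, to 43 bp downstream (chr3:142193269-142193418), with 25 pretreated cells and 40.6% of their tags. Its concentration ratio was 0.926 and 0.977, the opposite order to that of Irgm1.

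Gbp2 peaks were centred mostly at the same place in both groups. Those within 20 bp of its start on either side held 90.6% of naive and 92.02% of pretreated tags, and were listed in 11 of 16 naive (68.8%, 41.3 to 88.98) and 59 of 71 pretreated cells (83.1%, 72.3 to 90.95). The window 8 bp upstream of the start (chr3:142283545-142283694) led in both, with 35.4% of naive tags in 3 cells and 49.6% of pretreated tags in 29 cells.

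Gbp3 peaks lay mostly in 2 regions in pretreated cells, with similar shares of its tags. Whether both regions are transcription starts was not tested. The first, up to 100 bp downstream of its first annotated start, held 45.4% of tags and was listed in 61 of 80 cells (76.2%, 65.4 to 85.1). The second, 500 to 600 bp downstream, held 46.8% of tags and was listed in 58 of 80 cells (72.5%, 61.4 to 81.9). More than 1 peak was listed in 55 of the 80 cells, whereas each of the 5 naive cells had 1 peak. The second region was led by 1 window (chr3:142223478-142223627) with 34.9% of tags and 31 cells, which the deposited table places in the 5′ UTR, exon 2 of 12. It lies 232 bp downstream of the second annotated start, the one without an ISRE core in its promoter window. Too few naive cells were listed to set shares beside these.

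**Figure D3:**
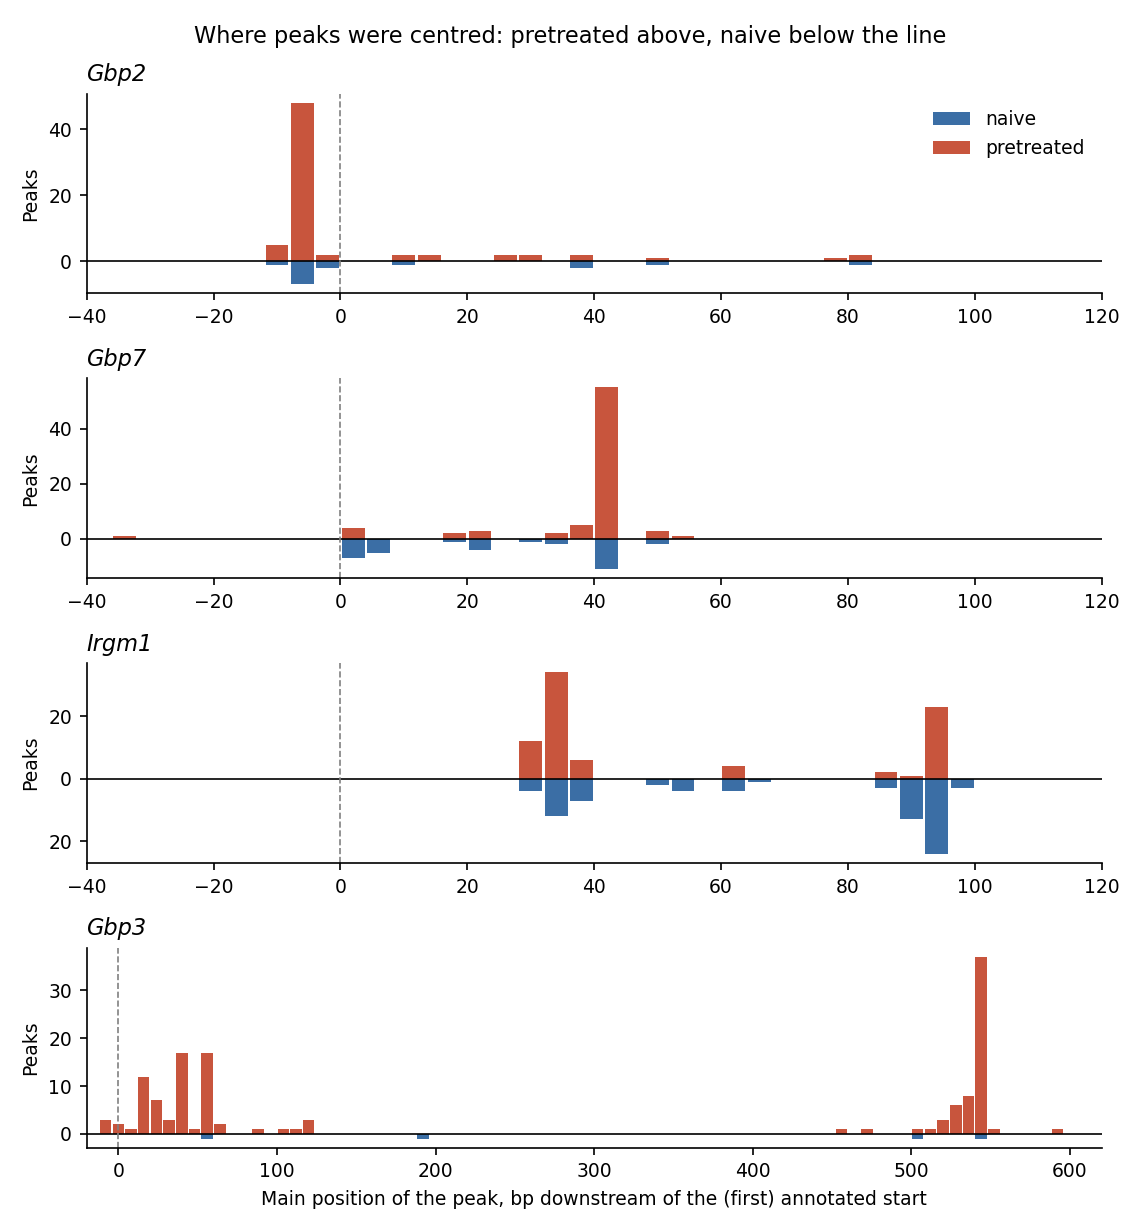
Number of peaks by main position, in bp downstream of the annotated start (dashed line; for Gbp3 the first of 2 starts), for pretreated cells (red, above the line) and naive cells (blue, below the line), with bins of 4 bp (8 bp for Gbp3); the few peaks outside the axes are not drawn. Irgm1 peaks gather mostly at 29 to 38 bp in pretreated and near 94 bp in naive cells. Both places hold peaks of both groups, with 23 pretreated and 24 naive cells at 94 bp. Gbp7 pretreated peaks gather at 38 to 43 bp, Gbp2 peaks at 8 bp upstream in both groups, and Gbp3 pretreated peaks in 2 regions.

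For 3 of the immunity-related GTPases most tags lay away from the annotated starts in both groups. Of all sense tags in the gene, near-start tags made up 4.91% for Igtp in naive cells and 0% in pretreated cells, 2.84% and 4.85% for Irgm2, and 16.3% and 6.02% for Iigp1, against 77.1% and 85.7% for Irgm1. For Gbp3 they made up 17.9% in naive and 75.3% in pretreated cells. Peaks more than 1000 bp from a start come from the same caller, and the files do not tell starts there from other 5′ ends. Igtp was listed there in 18 naive (19.6%, 12.03 to 29.1) and 66 pretreated cells (77.6%, 67.3 to 85.97), at pooled levels of 277 and 479. Most of its pretreated peaks lay in exon 3 of 3, in 9 naive and 51 pretreated cells, and no single window held them: 37 different windows were used in pretreated cells. In naive cells 1 cell reached 17264 tags per 10000000. Irgm2 was listed there in 32 naive and 50 pretreated cells, mostly in its 3′ UTR (28 and 48 cells), at pooled levels of 275 and 353. Counted anywhere in the gene, Igtp was therefore listed in 21.7% of naive and 77.6% of pretreated cells, and Irgm2 in 36.96% and 58.8%. Their transcripts share letters: 11.8% of the 50-base stretches of Igtp also occur in Irgm2, and 7.77% of those of Irgm2 occur in another gene, mostly Igtp. The genes past the filter were also listed more than 1000 bp from a start. Their log2 ratios there were 1.39 for Gbp2, 2.89 for Gbp3, 0.48 for Gbp7 and -0.17 for Irgm1. Near the starts these ratios were 2.48, 6.70, 2.74 and 0.67. Each was thus lower away from the starts, and that of Irgm1 changed sign.

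Iigp1 had a frequent peak in naive cells that the limit of 1000 bp leaves out. In exon 2 of 3, a 5′ UTR exon, 32 naive cells (34.8%, 25.1 to 45.4) and 6 pretreated cells (7.06%, 2.63 to 14.7) had a peak, at pooled levels of 336 and 14.6. Just 2 neighbouring windows (chr18:60542283-60542432 and chr18:60542286-60542435) were used by 14 and 15 naive cells and by 0 pretreated cells. They lie 6674 and 6677 bp from the nearest annotated start. In the 3′ UTR the order was the opposite, with 23 naive cells (25%) and 43 pretreated cells (50.6%). Counted anywhere in the gene, Iigp1 was listed in 49 naive (53.3%) and 57 pretreated cells (67.1%), so the lower near-start count of pretreated cells was not matched by fewer cells with any Iigp1 peak. The pooled level more than 1000 bp from a start was lower in pretreated cells, however. It was 642 in naive and 332 in pretreated cells (log2 ratio -0.95), and the highest naive cell stood at 16484.

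**Figure D4:**
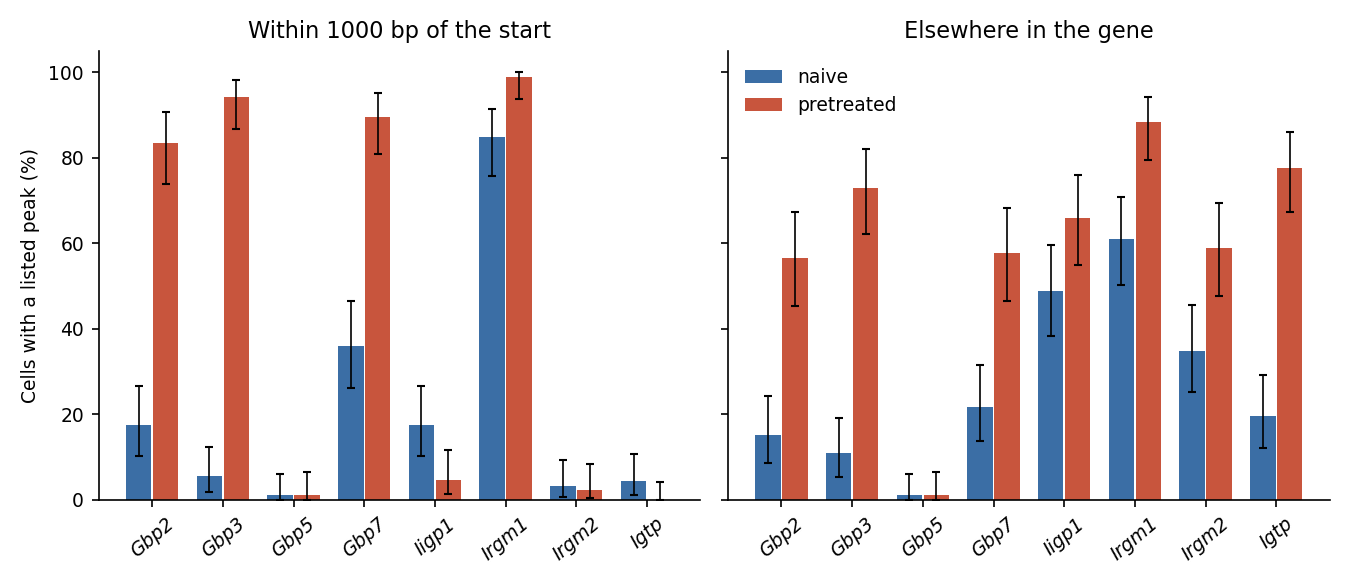
Percent of cells with a listed peak within 1000 bp of the start (left) and elsewhere in the gene (right) for the 8 GTPases, with exact 95% binomial intervals (92 naive cells in blue, 85 pretreated cells in red). Igtp was listed at 0 near its start in pretreated cells but in 77.6% of them elsewhere in the gene, and Iigp1 near its starts in 17.4% of naive and 4.71% of pretreated cells.

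A fixed list held 21 other GTPases of these and other families, not all of them known to be interferon-inducible, and did not hold Ifi47. Of the 21, 15 were named in the table and 5 passed the filter. Of these 5, 1 was at least 2-fold higher and 2 at least 2-fold lower in pretreated cells (median log2 ratio -0.57, against 0.47 over all genes). Gm12250, the effector also called Irgb10, was higher, at 162 in 11 naive cells and 1053 in 70 pretreated cells (log2 ratio 2.70). Tgtp2, an effector, was lower, at 2756 in 49 naive cells and 24.2 in 7 pretreated cells (log2 ratio -6.83). Its near-identical copy Tgtp1 is named in the table but had no listed peak near a start, and how reads were split between the copies is not known, so this value is uncertain. Mx2, an antiviral GTPase of another family, was lower, at 327 and 114 (log2 ratio -1.52), although it was listed in 27 cells of each group, and Gm4951 stood at 140 and 94.5.

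Among 15 genes of interferon signalling, which switch these GTPases on and off, 9 passed the filter, 3 were at least 2-fold higher and 0 lower (median log2 ratio 0.29). Usp18, an inhibitor of the interferon receptor, stood at 3263 and 10025 (log2 ratio 1.62). The other 2, Irf7 (log2 ratio 5.66) and the receptor subunit Ifnar2 (2.97), are named after their values were seen. The factors Stat2 and Irf1 and the kinase Jak1, next in level, had log2 ratios of 0.05, 0.79 and 0.19. Among 20 genes that place the GTPases on membranes or act with them, 9 passed, 1 was higher and 1 lower (median log2 ratio 0.37). Sqstm1, a ubiquitin-binding adaptor, stood at 489 in 30 naive cells and 1792 in 76 pretreated cells (log2 ratio 1.87). Map1lc3b, an autophagy protein that tags membranes, stood at 1538 in 70 naive cells and 63.3 in 9 pretreated cells (log2 ratio -4.60). Both are levels near annotated starts only. Gabarap, of the same family, had a log2 ratio of -0.41, and Atg5, a part of the machinery that attaches these tags, 0.49. The counts over these lists describe 2 pools of cells, and the same background shares of 30% and 9.12% apply to them.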

How the data were processed

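The authors deposited, for each of 192 cells, a peak list whose signal is the tag count of a peak scaled to 10000000 tags, per the file headers, and a fraction, the share of tags close to the main position. Per the file headers, HOMER called peaks by cell and strand (150 bp wide, 300 bp apart, at least 2 times the density of the surrounding 10000 bp). Bowtie2, HOMER and mm9 are named in the submitters' processing notes. Duplicate handling is not given in the sources used here, and tags are reads, not molecules. Tag counts were recovered from the deposited signal and the header totals: 100% of 1082504 peaks came out whole, within 0.1 tag or the rounding of the signal. Each peak was given to the RefSeq window starting within 2 bp. Ratios are pretreated over naive with 0.5 tag added. The unnamed columns of 2 deposited matrices, 192 in each, were not used. Python 3.11.15, pandas 2.3.3 and SciPy 1.17.1 were used; the ratio and assignment steps were tested on simulated data. Promoters are from RefSeq. For the signalling list, 1 gene is not reported here. The members and the gene lists were chosen with earlier results of these data known. Named list genes are the up to 4 of each list with the highest summed level, unless the text says otherwise, and the genes most like the members are the top 5 by Spearman correlation across pretreated cells.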

Additional observations from a re-analysis of the deposited data

Results flagged for a closer look

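Tags on the strand opposite to the gene, within 1000 bp of the starts of the 8 genes, are in none of the comparisons above. They summed to 92.6 per 10000000 tags in 16 pretreated cells, against 47.1 in 10 naive cells, and were singled out because the pretreated value lay above the naive one. Gbp7 was listed antisense in 2 naive and 9 pretreated cells, at levels of 15.1 and 28.1, and Igtp in 3 and 2 cells, at 18.5 and 5.02. The summed sense levels were 3554 and 9624, but for Igtp the antisense levels were above its own near-start sense levels of 14.3 and 0. Irgm2 was listed at 0 antisense in both groups.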

How the results depend on the processing

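No paired analysis was possible because each group is 1 sample of cells and the numbers in the titles pair nothing. The summed log2 ratio of 1.44 kept its direction in every alternative run. It was 1.48 with windows within 300 bp, 1.07 with no limit on the distance, 1.49 with exactly matching window starts, 1.46 as a mean over cells, 1.27 scaled to near-start tags, 0.97 with median-of-ratios scaling (which removes a shift of 0.47 common to the genes) and 1.47 without the highest cell of each gene in each group. With the GENCODE table it was 2.66, and the cause was not tested. The median share difference was 38.3 points with no distance limit, 16.6 with the GENCODE table and 4.45 with exact window starts. The number of genes at least 2-fold higher was 3 with windows within 300 bp, with no distance limit, as a mean over cells, under both other scalings and without the highest cells. The number of genes with the same leading window was 1 with exact window starts and 4 with neighbouring windows chained. Irgm2 changed sign with the GENCODE table (-0.98) and as a mean over cells (-1.17). Across alternatives Gbp2 ranged from 2.02 to 2.85, Gbp3 from 3.25 to 7.20, Gbp7 from 2.27 to 2.90, Irgm1 from 0.20 to 2.45 and Iigp1 from -5.93 to -1.11. The cause of the wide ranges of Gbp3 and Iigp1 was not tested. Peak calling at a fixed minimum limits what can be listed in shallow cells. Leaving out the deepest cell of each group was added after the data were seen.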
